A study of Mus musculus with 2 samples.

Results

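A set of 34 genes of glycolysis and of the response to low oxygen was followed across the cells of injured mouse hearts. They are 16 glycolytic enzymes and 18 other genes of the hypoxia response, listed by name among 32285 measured genes, and each of the 34 had at least 1 count in both libraries. The cells were CD45+ cells, that is leukocytes, isolated with magnetic beads from hearts of wild type male C57BL/6J mice aged 8 weeks. One group had been splenectomized and the other had had sham surgery. Both groups underwent occlusion of the left anterior descending coronary artery for 60 min followed by reperfusion for 24 h. Each group is 1 library of single cells, the sources used here do not give the number of animals behind it, and uninjured hearts were not analysed here. The surgery and the library cannot be told apart, so differences between the groups describe these libraries and carry no p-value.

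Glycolysis splits glucose into pyruvate, and lactate dehydrogenase turns pyruvate into lactate when mitochondria do not take it up. When oxygen is short, the prolyl hydroxylases encoded by Egln1 and Egln3 no longer mark the transcription factor HIF-1α (Hif1a) for degradation, and HIF-1 then binds a short core sequence near its target genes, among them most glycolytic enzymes. Neutrophils hold few mitochondria and are known for relying on glycolysis, and macrophages take up the same programme when activated by inflammation as well as by hypoxia.

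The core of the hypoxia response element is ACGTG or GCGTG, on either strand (CACGT or CACGC when read on the other). Upstream sequence is shown for 6 members whose values the results turn on or whose paralogs differ between cell types: Egln3, Bnip3 and Ankrd37, which were all called higher in a cluster of monocyte-like cells after splenectomy, the hexokinases Hk2 and Hk3, and Pgk1 as a glycolytic gene of the common pathway. They were picked after their values were seen. Bases are from RefSeq on GRCm38.p6, 5′ to 3′ on the strand of the gene. They run from 250 bases before the RefSeq start and stop before any exon that GENCODE vM21 lists there. The window of Ankrd37 ends 5856 bases from the start of its GENCODE gene and lies inside that gene. For the other members shown the window ends within 15 bases of the GENCODE start. Capitals mark the core sequences.
Egln3, chr12:54203875-54204124, minus strand: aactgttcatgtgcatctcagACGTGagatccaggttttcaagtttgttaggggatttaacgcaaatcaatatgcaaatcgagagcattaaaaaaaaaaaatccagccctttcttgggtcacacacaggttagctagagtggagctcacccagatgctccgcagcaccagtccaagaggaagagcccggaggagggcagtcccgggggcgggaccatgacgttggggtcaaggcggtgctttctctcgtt
Bnip3, chr7:138909520-138909756, minus strand: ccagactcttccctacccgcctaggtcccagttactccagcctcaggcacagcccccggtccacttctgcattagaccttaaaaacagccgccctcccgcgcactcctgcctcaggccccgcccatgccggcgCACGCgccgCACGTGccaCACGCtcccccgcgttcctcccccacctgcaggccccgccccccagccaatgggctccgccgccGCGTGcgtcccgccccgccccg
Ankrd37, chr8:45999868-46000100, minus strand: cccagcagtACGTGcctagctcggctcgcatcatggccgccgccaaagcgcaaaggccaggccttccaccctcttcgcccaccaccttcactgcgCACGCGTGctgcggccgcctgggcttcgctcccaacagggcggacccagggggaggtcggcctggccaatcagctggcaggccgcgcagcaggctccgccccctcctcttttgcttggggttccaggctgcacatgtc
Hk2, chr6:82774455-82774704, minus strand: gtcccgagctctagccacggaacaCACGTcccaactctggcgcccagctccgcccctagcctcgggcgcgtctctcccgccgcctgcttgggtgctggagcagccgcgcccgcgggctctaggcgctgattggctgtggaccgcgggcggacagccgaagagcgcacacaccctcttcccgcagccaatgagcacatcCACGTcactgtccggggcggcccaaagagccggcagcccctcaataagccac
Hk3, chr13:55021386-55021635, minus strand: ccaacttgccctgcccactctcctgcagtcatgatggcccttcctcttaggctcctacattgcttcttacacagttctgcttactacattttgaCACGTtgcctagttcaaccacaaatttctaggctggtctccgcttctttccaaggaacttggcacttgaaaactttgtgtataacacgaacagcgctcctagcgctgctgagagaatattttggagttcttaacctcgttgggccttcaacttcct
Pgk1, chrX:106186850-106187099, plus strand: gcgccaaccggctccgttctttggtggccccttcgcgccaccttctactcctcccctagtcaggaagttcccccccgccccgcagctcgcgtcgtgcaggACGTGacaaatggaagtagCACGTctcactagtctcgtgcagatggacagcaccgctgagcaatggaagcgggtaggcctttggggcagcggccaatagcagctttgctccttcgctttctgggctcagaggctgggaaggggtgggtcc

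Matches were counted by start position on both strands, so that a palindrome CACGTG counts as 2 matches of ACGTG. The stretch of Bnip3 held 2 ACGTG matches, both within a single CACGTG, and 3 GCGTG matches, and that of Ankrd37 held 1 and 2. Egln3 and Hk3 held 1 ACGTG match each, Hk2 and Pgk1 held 2 each, and none of these 4 held GCGTG. RefSeq promoters were found for 31 of the 34 members, in 44 entries. Some lie far from the GENCODE gene start, with the nearest window 6491 bases from it for Hif1a and 4328 for Ldha. Over the full 250 bases, at least 1 core was present in 14 of 16 glycolytic enzymes (87.5%) and 14 of 15 matched hypoxia genes (93.3%), against 41.5% of all 27025 genes of the table. Per promoter entry the shares were 77.8%, 88.2% and 38.6%. The members were listed as genes of glycolysis and of the hypoxia response, so these shares are no independent result. The genes of the table were not matched to the members for base content or expression. The genes Gpi1, Mif and Tpi1 held none in these windows. A match is a run of letters and says nothing of whether HIF-1 was bound there in these cells.

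The libraries held 53512625 (sham) and 48024013 (splenectomy) unique molecular identifiers (UMIs), each of which counts 1 captured transcript end. In total 5838 and 4805 cells were kept, with medians of 4988 and 7219 UMIs, and 9 cell barcodes occurred in both libraries. Ptprc, the gene of CD45, had a UMI in 79.7% and 79.4% of kept cells. Cells were grouped into classes by cluster and marker genes, with the members kept out of the clustering. The 3 largest classes were neutrophil-like (2269 sham and 1591 splenectomy cells), monocyte-like (829 and 998) and macrophage-like (1333 and 1025). Conventional dendritic-like, nonclassical monocyte-like, B cell-like, T cell-like and endothelial-like cells (the last are no leukocytes) numbered between 61 and 228 per library. Levels are CPM, the UMIs of a gene over all UMIs of the summed cells of a class, times 1000000. Genes can be set side by side because a transcript end is counted once whatever the transcript's length. Intervals are exact 95% Poisson intervals and cover counting error only.

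Macrophage-like and monocyte-like cells carried the most glycolytic message. The 16 enzymes summed to 7960 CPM (sham) and 8655 CPM (splenectomy) in macrophage-like cells and to 7770 and 8711 CPM in monocyte-like cells. Nonclassical monocyte-like cells followed with 5169 and 4469 CPM, conventional dendritic-like cells with 5026 and 4916 CPM and endothelial-like cells with 4178 and 3649 CPM. T cell-like cells held 2753 and 2362 CPM and neutrophil-like cells 2488 and 2944 CPM. The B cell-like class was lowest at 1557 and 1735 CPM. In both libraries the first 2 classes lay above and the B cell-like cells below all others. In these sums the order of nonclassical monocyte-like and conventional dendritic-like cells turned between the libraries, as did that of T cell-like and neutrophil-like cells. In the median cell neither order turned. Per 10000 UMIs of the cell, conventional dendritic-like cells had medians of 43.6 (sham) and 42.1 (splenectomy) glycolytic UMIs and nonclassical monocyte-like cells 40.3 and 32.4. Neutrophil-like cells had 22.4 and 26.2, and T cell-like cells 18.7 and 18.6. In UMIs per cell the gap between macrophage-like and neutrophil-like cells was wider than in CPM. The means were 8.85 and 11.7 glycolytic UMIs in a neutrophil-like cell and 116 and 131 in a macrophage-like cell. Their median total depths were 3319 and 3745 against 14373 and 14940 UMIs.

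Among the enzymes Gapdh, which oxidizes glyceraldehyde 3-phosphate, had the highest level in both macrophage-like and monocyte-like cells. It stood at 2661 (sham) and 2762 CPM (splenectomy) in macrophage-like cells, 2441 and 2705 CPM in monocyte-like cells, and 473 and 676 CPM in neutrophil-like cells. Ldha, the lactate dehydrogenase subunit, stood at 702 and 792 CPM in macrophage-like, 748 and 840 CPM in monocyte-like and 115 and 125 CPM in neutrophil-like cells. Pkm, the last kinase of the pathway, had the smallest gap of the abundant enzymes, with 1099 and 1169 CPM in macrophage-like and 707 and 797 CPM in neutrophil-like cells, and in neutrophil-like cells it was the enzyme with the highest level.

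With a 2-fold gap required in both libraries, 10 of 15 measured glycolytic enzymes were lower in neutrophil-like than in macrophage-like cells and 1 was higher, where 46.1% of 9743 measured genes were lower and 15.2% higher. Tpi1 (triose phosphate isomerase) was lower by 8.04 times in the sham library and 9.42 times in the splenectomy library, and Pgk1 (phosphoglycerate kinase) by 7.61 and 6.37 times. Ldha was lower by 6.1 and 6.31 times, Gapdh by 5.62 and 4.09 times, and Pfkl (liver-type phosphofructokinase) by 5.52 and 6.55 times. Pgam1, Aldoa, Aldoc, Eno1 and Hk2 were lower by between 2.32 and 3.72 times. Gpi1, Pkm, Pfkp and Hk1 did not reach the limit, and Pfkm had too few counts. The median log2 gap of the list was -1.49 and -1.68, against -0.94 and -0.98 over all measured genes. Since the classes come from the same cells, these gaps are descriptions.

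The exception was Hk3, a hexokinase of myeloid cells, at 76.4 and 79.9 CPM in neutrophil-like and 33.8 and 29.5 CPM in macrophage-like cells. Hk3 made up 51.5% (interval 48.6 to 54.4) of hexokinase UMIs in sham and 55.7% (52.4 to 59.0) in splenectomy neutrophil-like cells. In monocyte-like and macrophage-like cells Hk2, the inducible hexokinase, made up between 67.6% and 73.6%, and in conventional dendritic-like cells 82.4% and 86.9%. Endothelial-like cells had Hk1 at 45.8% and 57.5% with Hk2 for nearly all of the rest. The phosphofructokinases differed as well, since Pfkp made up 89.3% and 89.9% of their UMIs in conventional dendritic-like and 81.2% and 84.6% in neutrophil-like cells, but 51.8% and 46.1% in macrophage-like cells, where Pfkl made up 46.9% and 52.9%. Pfkm, the muscle form, reached 9.3% and 5.81% in endothelial-like cells and at most 1.28% in the 3 large classes. Of aldolase UMIs at least 97.7% were Aldoa in the 5 classes compared.

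**Figure D1:**
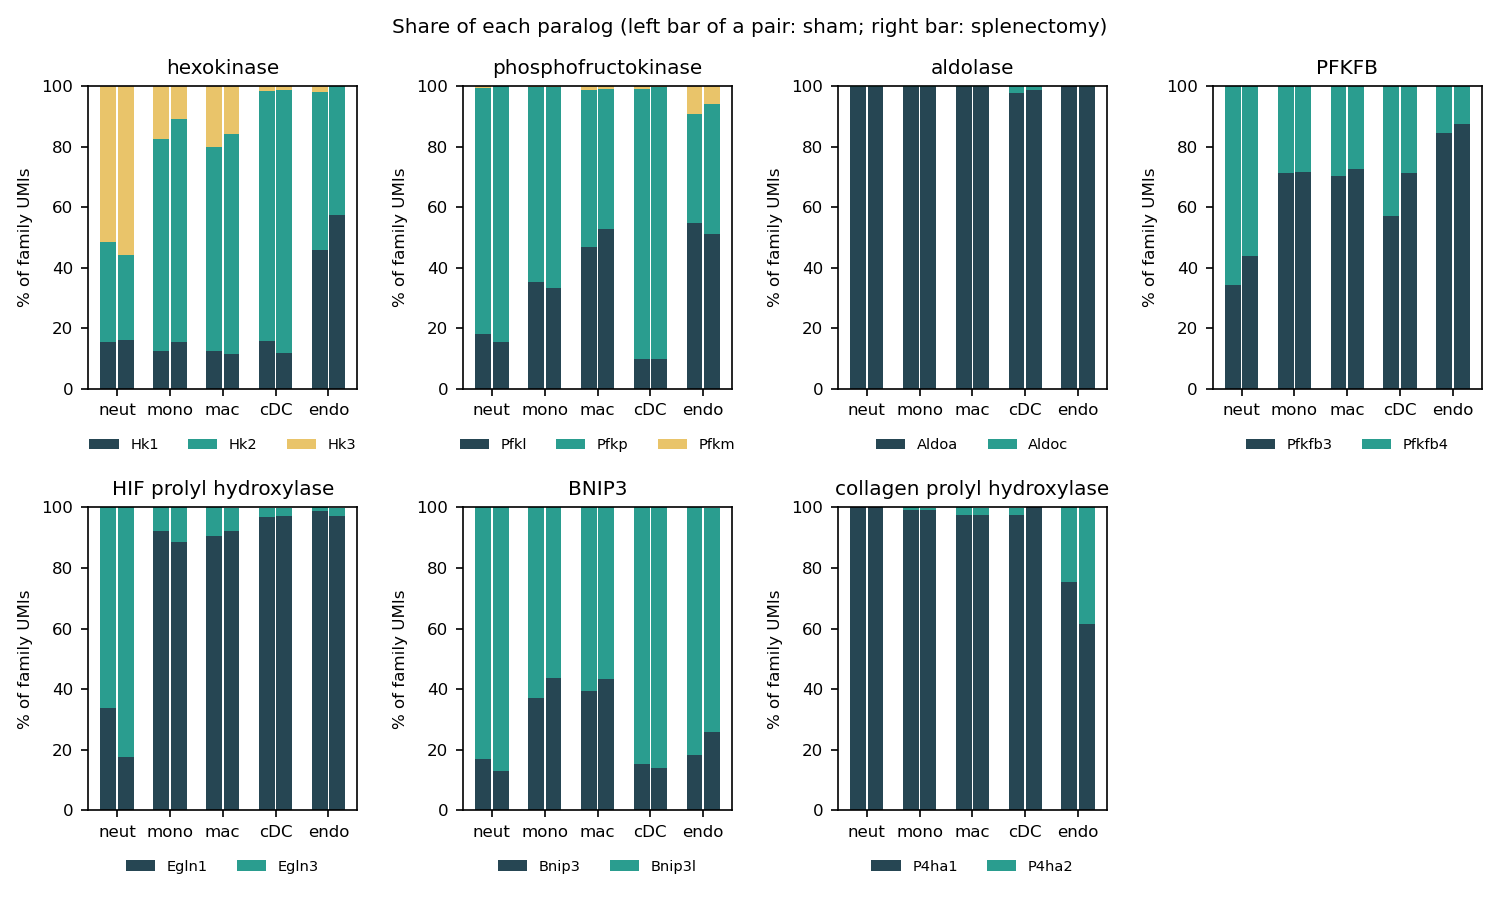
Share of each paralog among the UMIs of its gene family (y axis, percent) in 5 cell classes, with the sham library as the left and the splenectomy library as the right bar of each pair (neut, neutrophil-like; mono, monocyte-like; mac, macrophage-like; cDC, conventional dendritic-like; endo, endothelial-like). Of the 5 classes shown, neutrophil-like cells have the largest shares of Hk3 (51.5% and 55.7%), Pfkfb4 (65.6% and 56.3%) and Egln3 (66.2% and 82.4%).

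The other hypoxia genes did not follow the enzymes. Their sum was 3651 (sham) and 3760 CPM (splenectomy) in neutrophil-like cells, 3876 and 4465 CPM in monocyte-like cells and 3693 and 4012 CPM in macrophage-like cells. Most of this was Ier3, an immediate early gene that also answers to inflammatory signals, at 2528 and 2541 CPM in neutrophil-like, 2127 and 2514 CPM in monocyte-like and 1897 and 2021 CPM in macrophage-like cells. Without Ier3, a choice made after seeing the data, the log2 ratio of neutrophil-like over macrophage-like cells went from -0.02 to -0.68 in the sham library and from -0.09 to -0.71 in the splenectomy library.

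In neutrophil-like cells 3 of 16 measured hypoxia genes were at least 2-fold higher than in macrophage-like cells in both libraries and 5 were lower, against the 15.2% and 46.1% of all measured genes given above, so the higher share is near that of all genes. The 3 were Pfkfb4, which makes the activator of phosphofructokinase and stood 5.89 and 5.99 times higher, Egln3, the inducible HIF prolyl hydroxylase, 5.27 and 9.28 times higher, and Bhlhe40, a transcriptional repressor, 4.46 and 4.19 times higher. Lower were Mif, a cytokine, by 12.9 and 11.4 times, Higd1a, a mitochondrial protein, by 7.91 and 8.61 times, Pdk1, which keeps pyruvate from mitochondria, by 7.58 and 5.61 times, P4ha1, a collagen prolyl hydroxylase subunit, by 6.39 and 5.44 times, and Egln1 by 3.58 and 6.17 times. Hif1a itself was at 157 and 194 CPM in neutrophil-like, 410 and 464 CPM in monocyte-like and 327 and 378 CPM in macrophage-like cells.

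The leading member of a family differed between classes. Egln3 made up 66.2% and 82.4% of the UMIs of Egln1 and Egln3 in neutrophil-like cells, and between 7.56% and 11.4% in monocyte-like and macrophage-like cells. Pfkfb4 made up 65.6% and 56.3% of the UMIs of Pfkfb3 and Pfkfb4 in neutrophil-like cells and between 27.5% and 29.8% in monocyte-like and macrophage-like cells, but also 64.3% in nonclassical monocyte-like cells of the splenectomy library (37.5% in sham). Of the mitophagy receptors Bnip3 and Bnip3l, Bnip3l had its smallest shares in monocyte-like and macrophage-like cells, between 56.3% and 62.8%, and made up 83.1% and 87.1% in neutrophil-like cells and between 74.2% and 96.2% in the 5 smaller classes. Egln3 had a UMI in 4.7% and 7.86% of neutrophil-like cells thinned to 2000 UMIs each, against 1 of 99 and 1 of 100 B cell-like cells, and in 7.4% and 12.0% of neutrophil-like cells at full depth. At full depth the median neutrophil-like cell had 3319 and 3745 UMIs, and the median B cell-like cell 3489 and 3689. Adm, the vasodilator adrenomedullin, stood at 61.6 and 19.5 CPM in endothelial-like cells, with 41 and 13 UMIs. In the other classes it had at most 9 UMIs a library. P4ha2 was at 28.5 and 42.0 CPM in endothelial-like cells and at most 2.39 CPM in the 3 large classes, with no UMI in neutrophil-like cells, which allows up to 3 counts.

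**Figure D2:**
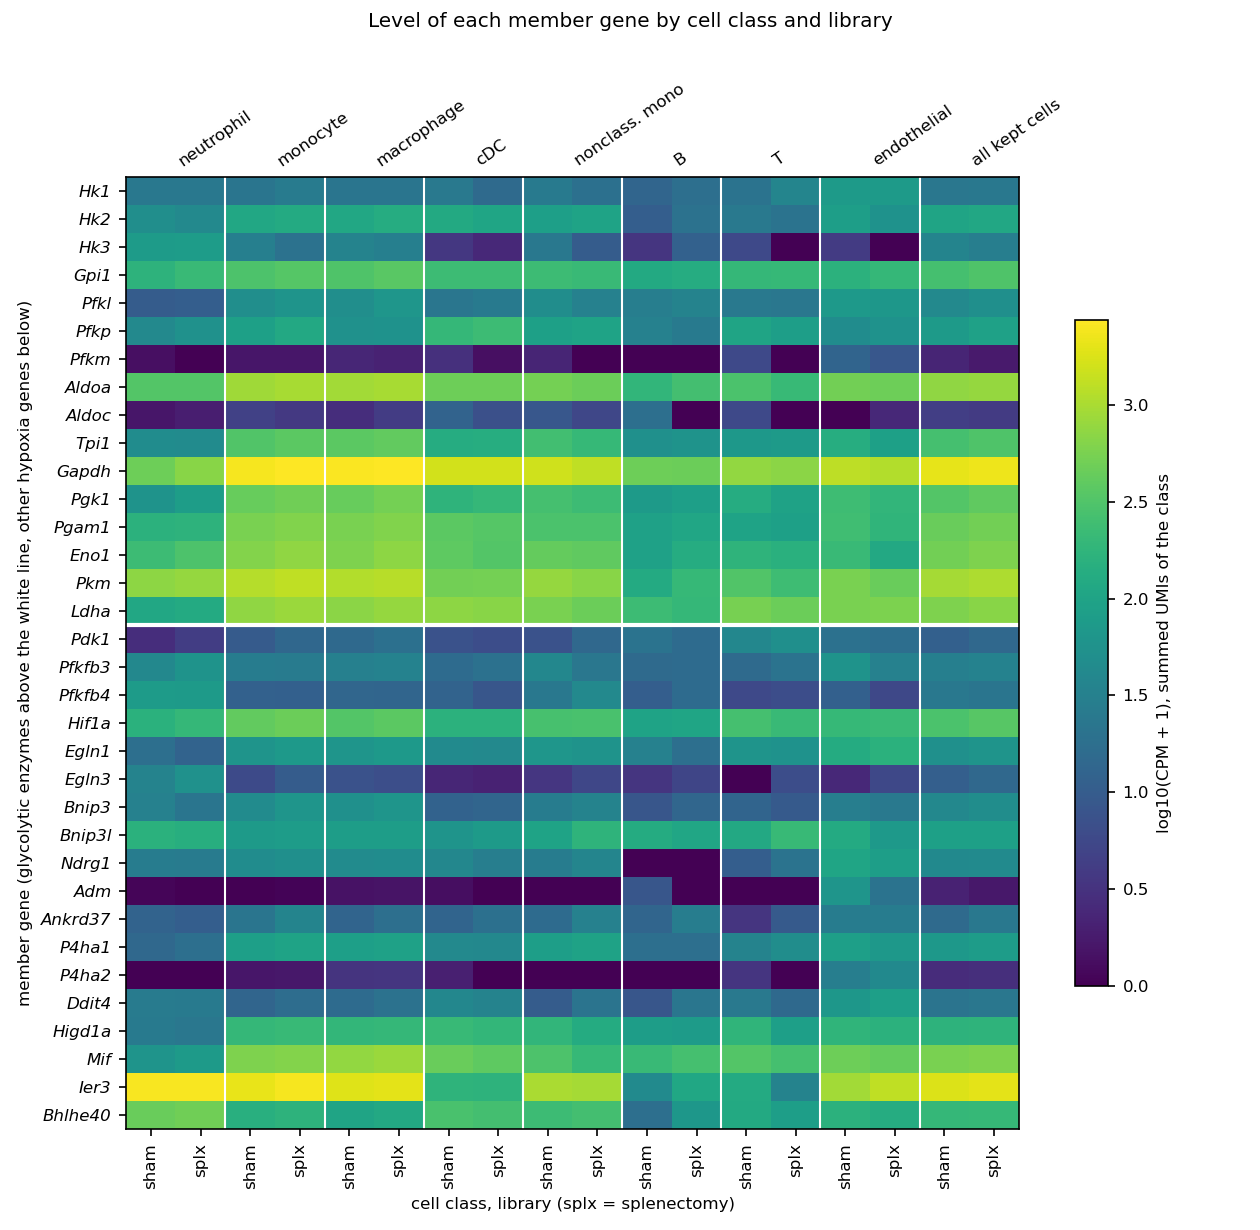
Level of each member (rows, glycolytic enzymes above the white line and other hypoxia genes below it) by cell class and library (columns, splx for splenectomy), as log10(CPM + 1) of summed UMIs. Gapdh in macrophage-like cells (2661 and 2762 CPM) and Ier3 in neutrophil-like cells (2528 and 2541 CPM) are among the brightest rows, and Adm (61.6 and 19.5 CPM) and P4ha2 (28.5 and 42.0 CPM) are highest in endothelial-like cells.

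Monocyte-like and macrophage-like cells had similar levels of the members. Of 15 enzymes and 17 hypoxia genes measured, 0 differed upward by 2-fold in both libraries and P4ha2 was the 1 lower gene in monocyte-like cells, where 1.97% of 9857 measured genes were higher and 5.78% lower. The wide differences lay inside the macrophage-like class. Clusters are named here by leading genes. Macrophage-like cells led by Fabp5, Spp1 and Arg1 summed to 9184 (sham) and 10398 CPM (splenectomy) of glycolytic enzymes and those led by Ccl24 and Serpinb2 to 9298 and 9805 CPM, against 4342 and 5067 CPM in those led by Gdf15 and Mmp12 and 3153 and 4041 CPM in those led by Lyve1 and Folr2. Lyve1 and Folr2 are markers of macrophages resident in the heart, and Spp1 and Arg1 of macrophages that come from recruited monocytes. Among monocyte-like cells the cluster led by Il6 and Inhba held 9058 and 9491 CPM and that led by Ly6c2 and Chil3 held 6912 and 7582 CPM. The neutrophil-like clusters of at least 50 cells a library lay between 2305 and 3344 CPM.

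The Spp1 and Arg1 cluster exceeded the Lyve1 and Folr2 cluster by at least 2-fold in both libraries for 10 of 14 measured enzymes and 7 of 16 hypoxia genes, and 1 hypoxia gene was lower (5.90% and 11.3% of 8441 measured genes were higher and lower). Pgam1, phosphoglycerate mutase, had the widest gap of the enzymes, 4.58-fold in the sham and 3.95-fold in the splenectomy library, followed by Pgk1 (3.98-fold and 3.34-fold). Hk1, Hk2, Hk3 and Gpi1, which act at the entry of the pathway, did not reach the limit, and Hk2 was at 0.861 and 0.856 times the level of the other cluster. The 7 hypoxia genes were Bhlhe40 (8.02-fold and 14.8-fold), Hif1a (6.71-fold and 4.87-fold), Ndrg1 (6.06-fold and 5.5-fold), Mif (4.59-fold and 3.49-fold), Egln3 (3.89-fold and 4.28-fold, against 0 UMIs in the other cluster, which was set to 3), Bnip3 (2.61-fold and 3.8-fold) and Ddit4 (2.4-fold and 5.91-fold). Pfkfb3 was the lower one, by 2.58 and 2.09 times. These clusters also differed in depth, with median UMIs of 16934 and 17538 against 10310 and 12549, whose part in the result was not tested.

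**Figure D3:**
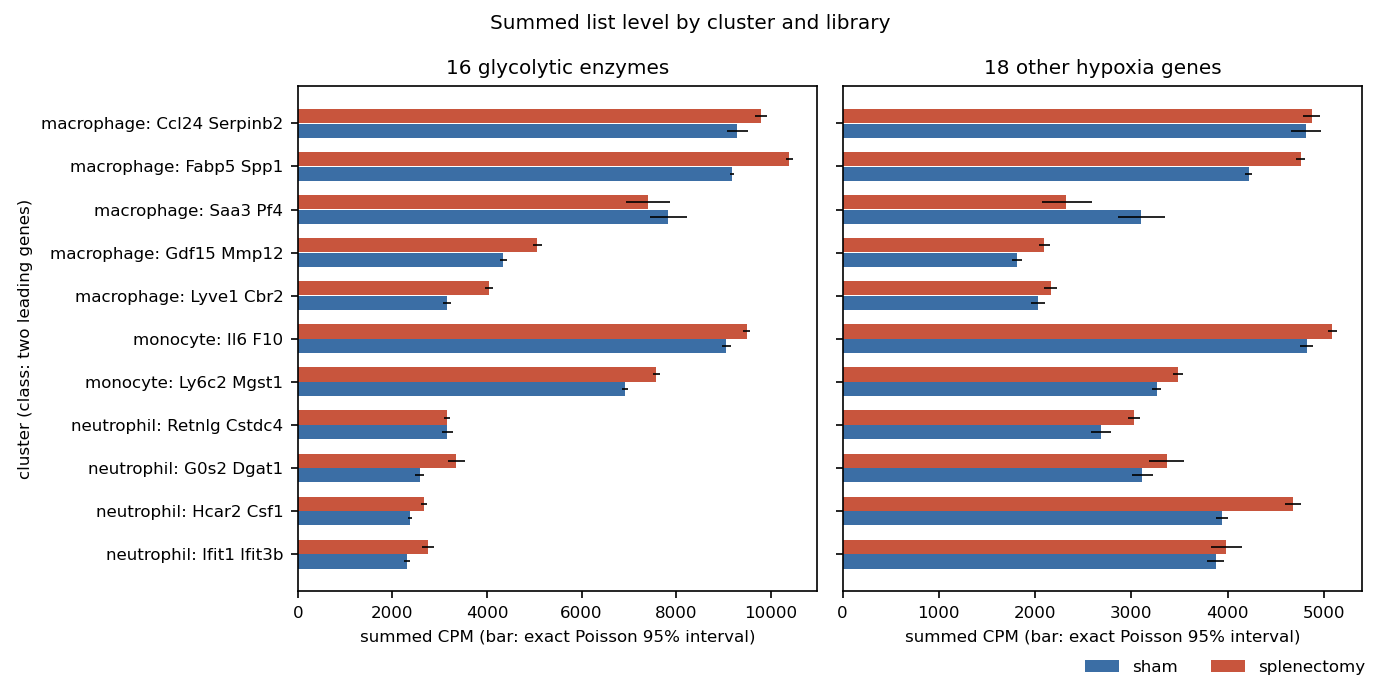
Summed CPM of the 16 glycolytic enzymes (left) and the 18 other hypoxia genes (right) in each cluster of at least 50 cells a library, with exact 95% Poisson intervals as thin bars. The macrophage-like clusters spread from 3153 to 9298 CPM of glycolytic enzymes in the sham library, while the neutrophil-like clusters lie between 2305 and 3160 CPM there.

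Between cells of a class the spread was also wide. Scaled to 10000 UMIs of its own total, the median macrophage-like cell of the sham library had 67.5 glycolytic UMIs, with 20.6 at the 10th and 125 at the 90th percentile. In the splenectomy library these values were 74.9, 25.5 and 133. Neutrophil-like cells had 22.4, 9.64 and 41.9 (sham) and 26.2, 11.8 and 48.8 (splenectomy). The spread of cells within a library was wider than the shift between libraries. This spread includes counting error and pools clusters of different levels, and their parts were not separated. The median neutrophil-like cell held only 7 (sham) and 10 (splenectomy) glycolytic UMIs.

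The comparison of splenectomy with sham surgery asks how the absence of the spleen, a reservoir of monocytes, bears on the cells of the infarcted heart. Higher and lower are used where CPM differed by at least 1.5-fold, the interval of the ratio excluded 1 and both libraries together held at least 40 UMIs. Ratios are log2 of splenectomy over sham. In the monocyte-like class 27 of 31 measured members lay above 0, as did 29 of 33 in the macrophage-like class and 18 of 29 in the neutrophil-like class, where 48.2%, 46.9% and 40.3% of all measured genes did. The shifts were small. The enzymes had median ratios of 0.17 in monocyte-like, 0.16 in macrophage-like and 0.13 in neutrophil-like cells, and the hypoxia genes of 0.18, 0.10 and -0.04 in the same order, where all measured genes had medians of -0.01, -0.01 and -0.07. Few members passed 1.5-fold.

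These medians depended on how cells were classed. With cells of at least 2000 UMIs alone, the macrophage-like class shrank to 949 and 601 cells and its medians were -0.002 and -0.009, with 7 of 15 enzymes and 8 of 17 hypoxia genes above 0. With the libraries clustered apart, the median of the enzymes in monocyte-like cells was -0.08, with 5 of 14 above 0. The neutrophil-like class again held 2269 and 1591 cells at Leiden resolutions 0.5 and 1.5 and with the libraries clustered apart. With its clusters weighted equally, the median of its hypoxia genes was 0.08.

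In neutrophil-like cells 1 of 29 measured members was higher after splenectomy and 2 were lower, near the 3.62% and 6.20% of all 7516 measured genes. Egln3 had 33.7 CPM (272 UMIs) after sham surgery and 53.3 CPM (337 UMIs) after splenectomy, at a ratio of 0.66 (0.43 to 0.90). Egln1 had 17.2 CPM (139 UMIs) and 11.4 CPM (72 UMIs), a ratio of -0.60 (-1.03 to -0.18). Bnip3 had 31.5 CPM (254 UMIs) and 20.9 CPM (132 UMIs), a ratio of -0.59 (-0.91 to -0.28). The 2 prolyl hydroxylases thus differed in opposite directions. Egln1 and Bnip3 stand just past the limit. Of 14 alternatives, Egln1 stayed past it in 11 and Bnip3 in 9. Among others, they did not reach it with ratios centred on all genes (-0.53 and -0.52), nor with cells classed one by one (-0.36 and -0.54). With clusters weighted equally Egln3 was at 0.37.

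The abundant enzymes of neutrophil-like cells stayed under the limit. Gapdh was at 473 and 676 CPM, a ratio of 0.51 (0.45 to 0.58), Pgk1 at 57.9 and 82.2 CPM, a ratio of 0.51 (0.32 to 0.69), and Eno1 at 229 and 299 CPM, a ratio of 0.38 (0.29 to 0.48). Ldha had a ratio of 0.12 (-0.01 to 0.26) and Hif1a, at 157 and 194 CPM, one of 0.31 (0.19 to 0.42). The 26 measured members that were not called ranged from -0.29 (Hk2) to 0.53 (Pfkfb3). At 2000 UMIs per cell, Gapdh had a UMI in 53.4% of 2044 neutrophil-like cells (sham) and 64.5% of 1475 (splenectomy), and in 58.6% and 58.0% of B cell-like cells.

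The makeup of the neutrophil-like class differed between the libraries. Cells led by Retnlg, S100a9 and Lcn2 numbered 229 of 2269 in the sham and 637 of 1591 in the splenectomy library, and those led by Ifit1 and Ifit3 467 and 137. The Retnlg cluster had more Gapdh than the largest cluster, led by Hcar2 and Csf1, in both libraries (768 and 810 against 414 and 537 CPM). Within clusters the Gapdh ratio was 0.08 (-0.04 to 0.20) in the Retnlg cluster, 0.37 (0.27 to 0.48) in the Hcar2 cluster, 0.35 (0.15 to 0.54) in the Ifit1 cluster and 0.54 (0.33 to 0.75) in the cluster led by G0s2 and Nt5e. Egln3 was likewise highest in the Retnlg cluster (52.3 and 68.5 CPM), and within clusters its ratio was 0.39 (-0.06 to 0.86) there, 0.35 (-0.04 to 0.74) in the Hcar2 cluster, 0.67 (-0.07 to 1.37) in the Ifit1 cluster and -0.02 (-1.16 to 1.02) in the G0s2 cluster. Each of these 4 intervals included 0. Bnip3 was lower within the Retnlg cluster, at 35.5 CPM (36 UMIs) and 14.8 CPM (43 UMIs), a ratio of -1.26 (-1.94 to -0.58), and within the Ifit1 cluster, at 34.0 CPM (64 UMIs) and 15.5 CPM (9 UMIs), a ratio of -1.14 (-2.33 to -0.12). In the Hcar2 cluster its ratio was -0.20 (-0.65 to 0.25). Tpi1 and Higd1a were also lower in the Retnlg cluster, with ratios of -1.13 (-1.59 to -0.66) and -0.94 (-1.57 to -0.28). These 3 of 27 measured members were lower and 0 higher there, where 3.77% of measured genes were lower and 4.94% higher. In the Ifit1 cluster Bnip3 was the 1 of 26 lower, and 3 were higher, namely Pfkfb3 at 1.03 (0.41 to 1.63), P4ha1 at 1.20 (0.21 to 2.15) and Pfkp at 0.92 (0.23 to 1.59), where 4.25% of measured genes were lower and 4.42% higher. Eno1, at 0.69 (0.41 to 0.97), was the 1 of 21 called in the G0s2 cluster, where 3% of measured genes were higher and 5.24% lower. In the Hcar2 cluster 0 of 29 were called. The summed hypoxia genes had a ratio of 0.04 over the class. Within clusters this ratio was 0.25 in the Hcar2, 0.18 in the Retnlg, 0.04 in the Ifit1 and 0.11 in the G0s2 cluster. It was -0.54 in a small cluster of 61 and 41 cells led by S100a9 and S100a8. The genes of the dissociation and early stress list summed to 17931 CPM in neutrophil-like cells of the sham and 14867 CPM of the splenectomy library, and the part of this difference in the results was not tested.

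In monocyte-like cells 2 of 31 measured members were higher and 1 was lower, where 2.76% and 4.55% of 9422 measured genes were. Egln3 had 4.91 CPM (55 UMIs) in the sham and 9.05 CPM (122 UMIs) in the splenectomy library, a ratio of 0.88 (0.41 to 1.37). Ankrd37, an ankyrin repeat protein known as a HIF-1 target, had 20.6 CPM (230 UMIs) and 35.2 CPM (475 UMIs), a ratio of 0.78 (0.55 to 1.01). Hk3 had 29.2 CPM (327 UMIs) and 18.8 CPM (253 UMIs), a ratio of -0.64 (-0.88 to -0.40). The enzymes other than Hk3 and Aldoc, at -0.46 (-1.14 to 0.23), lay between 0.11 and 0.41, with Gapdh at 0.15 (0.13 to 0.17) and Ldha at 0.17 (0.13 to 0.21). Hif1a was at 0.18 (0.12 to 0.23) and Bnip3, at 44.3 and 60.9 CPM, at 0.46 (0.30 to 0.62). The class lay in different clusters in the libraries. Cells led by Il6 and Inhba numbered 285 of 829 (34.4%) in the sham and 554 of 998 (55.5%) in the splenectomy library, and those led by Ly6c2 and Chil3 482 (58.1%) and 415 (41.6%). In the sham library the Il6 cluster already held more of the enzymes (9058 against 6912 CPM), Egln3 (10.4 against 1.74 CPM), Ankrd37 (31.9 against 15.6 CPM) and Bnip3 (63.7 against 31.7 CPM). The summed enzymes had a ratio of 0.17 over the class and of 0.13 in the Ly6c2, 0.07 in the Il6 and 0.00 in the Rsad2 and Cxcl10 cluster, the last with 62 and 29 cells. The calls also depended on how the class was drawn. Egln3 went to 0.36 with cells classed one by one, 0.47 with at least 500 genes per cell and 0.31 with monocyte-like and macrophage-like cells as 1 class. Hk3 stayed past the limit in only 8 of 15 alternatives and went to -0.39 with that joint class. Ankrd37 stayed past the limit in 14 of 15 alternatives, the exception being 0.56 with clusters weighted equally.

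Within the cluster led by Ly6c2, Mgst1 and Chil3, genes of classical monocytes, 4 of 30 measured members were higher and 0 lower, where 3.32% and 4.09% of its 8331 measured genes were. Egln3 had 11 UMIs (1.74 CPM) in the sham and 59 UMIs (11.2 CPM) in the splenectomy library, a ratio of 2.70 (1.75 to 3.77). The 11 UMIs came from 11 cells and the 59 UMIs from 39 cells, with at most 7 in a cell. Ankrd37 went from 15.6 CPM (99 UMIs in 76 cells) to 33.4 CPM (175 UMIs in 93 cells, at most 15 in a cell), a ratio of 1.09 (0.73 to 1.46). Bnip3 went from 31.7 CPM (201 UMIs in 122 cells) to 53.0 CPM (278 UMIs in 147 cells, at most 10 in a cell), a ratio of 0.74 (0.47 to 1.01). The other was Pdk1, at 6.47 and 11.1 CPM, a ratio of 0.77 (0.17 to 1.39). The enzymes did not share the size of this shift, with Gapdh at 0.11 (0.07 to 0.14) and Ldha at 0.04 (-0.02 to 0.11). In the other large monocyte-like cluster, led by Il6 and Inhba, the ratios were -0.42 (-1.01 to 0.19) for Egln3, 0.20 (-0.11 to 0.52) for Ankrd37 and 0.05 (-0.17 to 0.27) for Bnip3. There Ddit4, an inhibitor of mTOR signalling, was the 1 of 31 members called, at 10.4 CPM (41 UMIs) and 16.3 CPM (128 UMIs), a ratio of 0.65 (0.13 to 1.20), against 2.50% of measured genes higher and 3.61% lower. The difference between the clusters was not tested.

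Neutrophil RNA in this cluster also differed between the libraries. The 10 neutrophil markers summed to 1459 CPM in the Ly6c2 cluster of the sham and 5893 CPM of the splenectomy library. In neutrophil-like cells they summed to 110315 and 142513 CPM. Egln3 was at 33.7 and 53.3 CPM in neutrophil-like cells, while Bnip3 was lower there after splenectomy, as given above. Over all monocyte-like cells the 10 markers summed to 1282 and 3731 CPM, with 4 of 10 higher and 0 at 0. In cells of the cluster without a UMI of 7 of these 10 markers (Csf3r, Cxcr2, Retnlg, Mmp9, Il1r2, Hdc and Lcn2), a choice made after seeing the data that kept 108 and 51 cells, the 10 markers still summed to 490.8 and 858.8 CPM. Among these cells Egln3 was at 3.75 CPM (5 UMIs) and 11.1 CPM (6 UMIs), a ratio of 1.57 (-0.41 to 3.62). Ankrd37 was there at 21.0 CPM (28 UMIs in 23 cells) and 48.2 CPM (26 UMIs in 12 cells), a ratio of 1.20 (0.37 to 2.02). Of the 26 UMIs, 7 came from 1 cell, which the interval does not take into account. Bnip3 was there at 43.5 and 51.9 CPM, a ratio of 0.26 (-0.45 to 0.93). The intervals of Egln3 and Bnip3 included 0 there, and the part of neutrophil RNA in these ratios was not tested further.

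**Figure D4:**
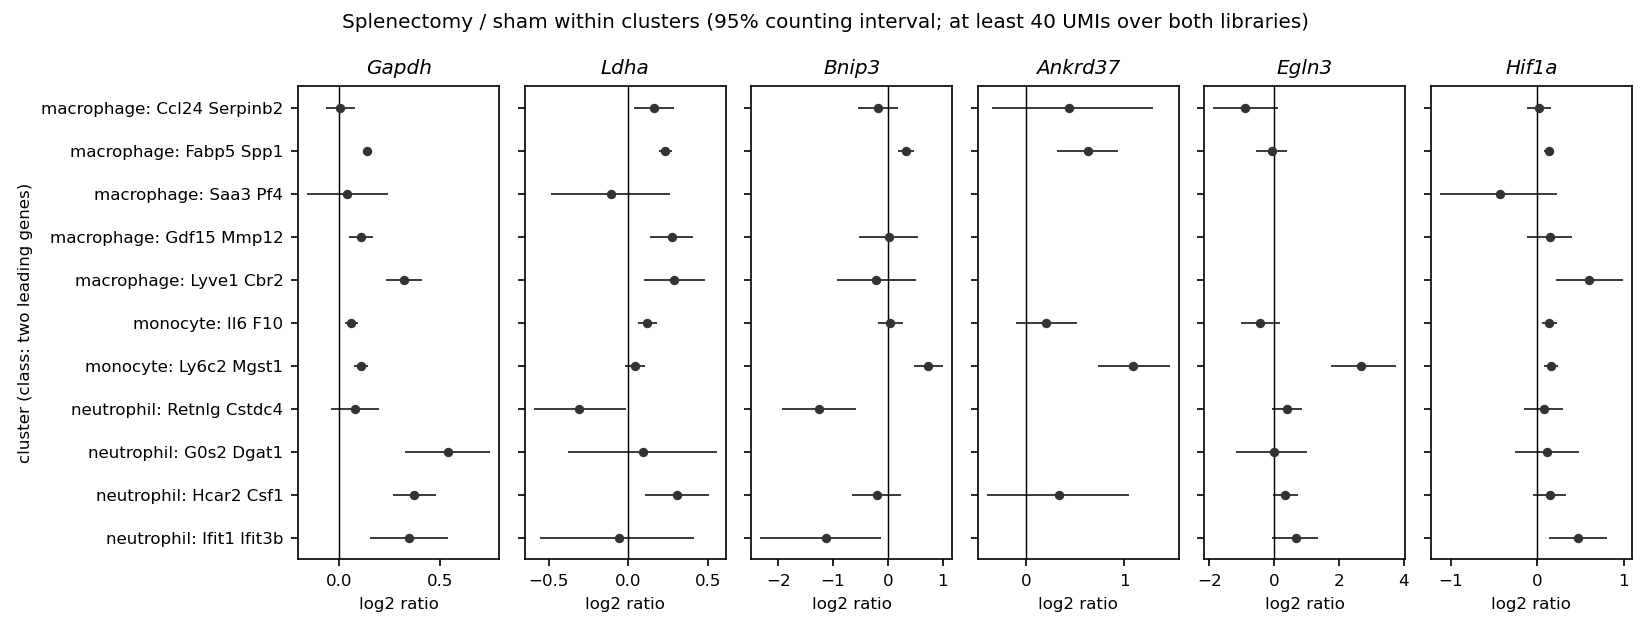
Log2 ratio of splenectomy over sham (x axis, with exact 95% counting intervals) for 6 members within each cluster of at least 50 cells a library (rows, class and 2 leading genes), shown where both libraries together hold at least 40 UMIs. Egln3 (2.70), Ankrd37 (1.09) and Bnip3 (0.74) lie to the right in the Ly6c2 cluster of monocyte-like cells, and Bnip3 lies to the left in the Retnlg (-1.26) and Ifit1 (-1.14) clusters of neutrophil-like cells.

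In macrophage-like cells 1 of 33 measured members was higher and 0 were lower, against 2.37% and 2.34% of 10431 measured genes. The 1 was Aldoc, the brain-type aldolase, at 1.86 CPM (36 UMIs) and 3.03 CPM (47 UMIs), a ratio of 0.71 (0.05 to 1.38), which went to 0.10 with cells of at least 2000 UMIs. Gapdh was at 0.05 (0.04 to 0.07), Ldha at 0.17 (0.14 to 0.21), Hif1a at 0.21 (0.16 to 0.26) and Bnip3, at 52.1 and 62.1 CPM, at 0.25 (0.12 to 0.38), although Bnip3 went to -0.03 with cells of at least 2000 UMIs and to -0.06 with clusters weighted equally. The other members not called ranged from -0.21 (Pfkm) to 0.52 (Ankrd37). Within the macrophage-like clusters of at least 50 cells a library, 2 members were called higher and 5 lower in all. Within the Spp1 and Arg1 cluster Ankrd37 was at 12.8 and 19.7 CPM, a ratio of 0.63 (0.32 to 0.94), and within the Lyve1 and Folr2 cluster Hif1a was at 57.5 and 87.3 CPM, a ratio of 0.60 (0.22 to 0.99). They were the 1 of 31 and the 1 of 25 members called there, where 1.19% and 4.12% of measured genes were higher and 2.94% and 3.03% lower. In the Gdf15 cluster Hk3, at -0.70 (-1.23 to -0.19), and Pfkfb3, at -0.69 (-1.16 to -0.23), were the 2 of 27 called (4.21% of measured genes lower, 3.70% higher). In the Ccl24 cluster it was Hk1 of 29, at -0.71 (-1.38 to -0.003), with 6.76% lower and 3.36% higher. In the Saa3 cluster Higd1a, at -0.74 (-1.47 to -0.05), and Ier3, at -0.95 (-1.31 to -0.59), were lower of 13, with 8.13% of measured genes lower and 5.45% higher. The summed enzymes had ratios above 0 in 4 of the 5 macrophage-like clusters, from 0.08 (Ccl24) to 0.36 (Lyve1), all short of 1.5-fold. The exception was the cluster of few UMIs led by Saa3 and Pf4 (-0.08). Neutrophil markers summed to 563 and 886 CPM and the genes of the mitochondrial genome to 20987 and 25663 CPM in macrophage-like cells, and to 18362 and 22919 CPM of mitochondrial genes in monocyte-like cells. Their part in the small shifts was not tested.

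**Figure D5:**
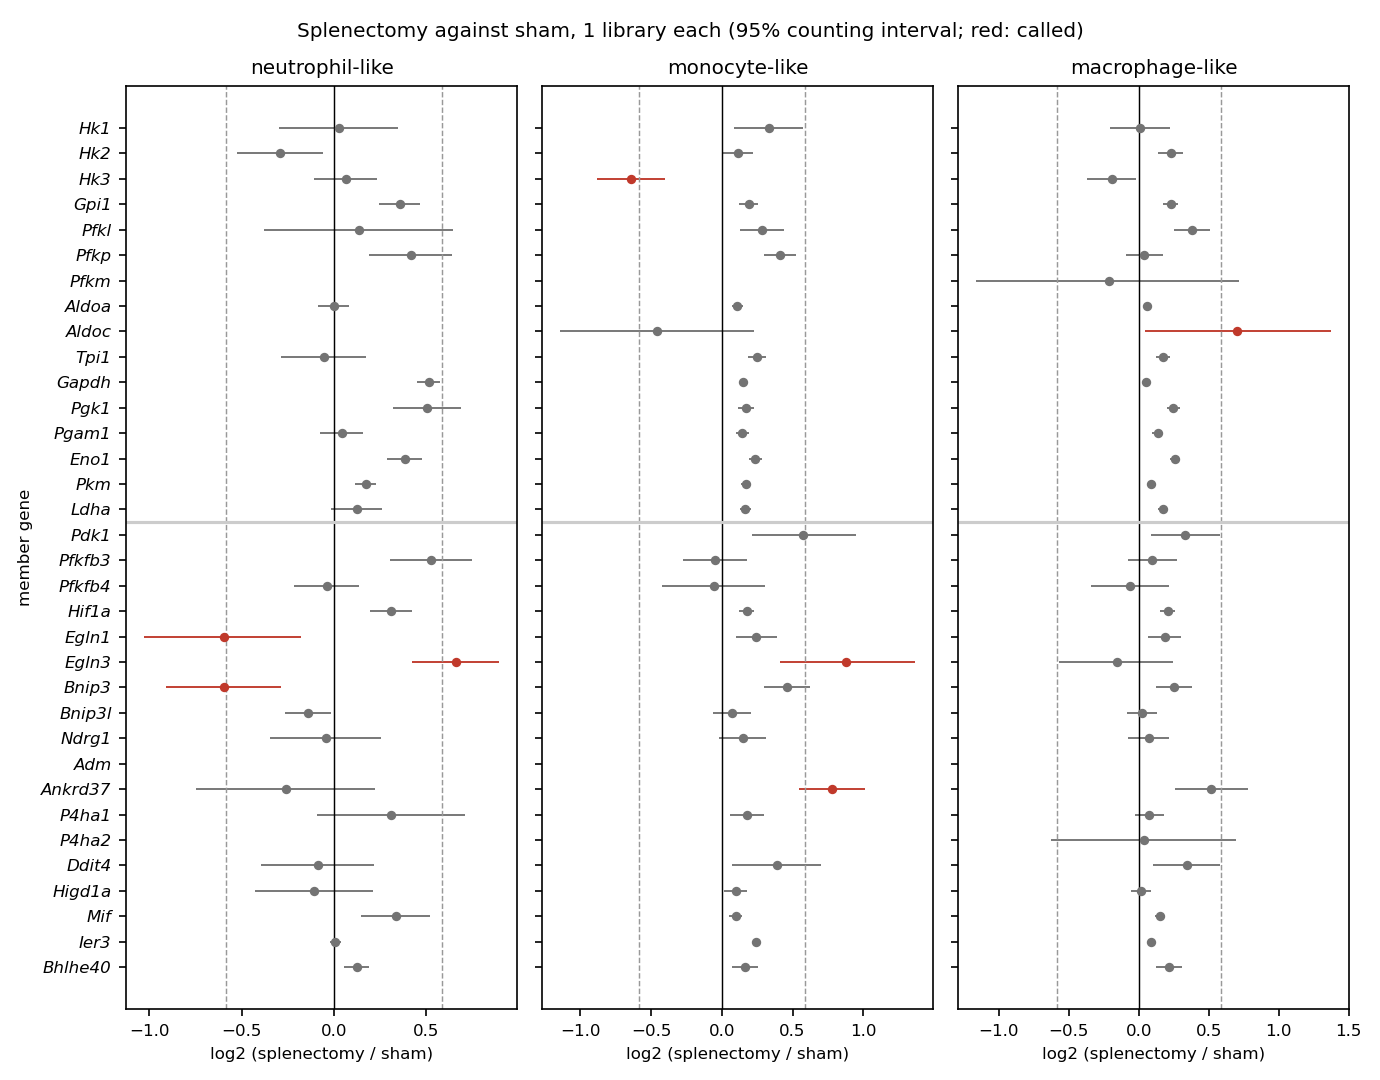
Log2 ratio of splenectomy over sham for each measured member in the 3 large classes (x axis, exact 95% counting intervals, dashed lines at 1.5-fold, enzymes above the grey line), with called members in red. Most points lie slightly right of 0 in monocyte-like (27 of 31) and macrophage-like cells (29 of 33), and few pass 1.5-fold.

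Of the 5 smaller classes, 4 had list medians below 0 and the B cell-like class had medians above it, and the difference between classes was not tested. Enzymes and hypoxia genes had median ratios of -0.01 and -0.09 in conventional dendritic-like, -0.22 and -0.08 in nonclassical monocyte-like, -0.22 and -0.33 in T cell-like, and -0.19 and -0.18 in endothelial-like cells. All measured genes had medians of 0.01, -0.02, -0.08 and -0.03 in the same order. Per 10000 UMIs, the median T cell-like cell had 18.7 (sham) and 18.6 (splenectomy) glycolytic UMIs and 9.69 and 10.4 of hypoxia genes. In the conventional dendritic-like, nonclassical monocyte-like and endothelial-like classes both of these per-cell medians lay below sham in the splenectomy library. The B cell-like class had medians of 0.21 and 0.10, against 0.02 over all measured genes. There 10 of 14 members lay above 0, where 52.3% of 2740 measured genes did. The intervals were wide, with median bounds of -0.40 and 0.89 for the enzymes and -0.53 and 0.705 for the hypoxia genes. The median bounds included 0 in the other smaller classes too. In endothelial-like cells 0 of 26 measured members were higher and 5 were lower (5.34% and 6.50% of the measured genes). They were Adm, at 61.6 CPM (41 UMIs) and 19.5 CPM (13 UMIs), a ratio of -1.66 (-2.69 to -0.73), Bnip3l at -0.87 (-1.42 to -0.34), Pfkfb3 at -0.86 (-1.70 to -0.05), Eno1 at -0.84 (-1.26 to -0.43) and Tpi1 at -0.62 (-1.11 to -0.14). Egln1 was at 131 and 157 CPM there, the highest level of any class, with a ratio of 0.27 (-0.16 to 0.70). The makeup of this class also differed. Between the sham and splenectomy libraries fibroblast markers went from 706 to 2226 CPM (4 of 6 higher), mural cell markers from 865 to 1759 CPM (4 of 6 higher) and cardiomyocyte markers from 158 to 328 CPM (3 of 7 higher). Macrophage markers went from 3366 to 1430 CPM (6 of 16 lower, 1 higher), neutrophil markers from 1495 to 565 CPM (2 of 10 lower, 1 higher) and cell division genes from 1076 to 657 CPM. The 8 endothelial markers summed to 10469 and 11827 CPM. The part of these differences in the 5 calls was not tested. In T cell-like cells Bnip3l was higher, at 0.80 (0.26 to 1.34), and Higd1a and Ier3 were lower, at -1.02 (-1.68 to -0.40) and -1.93 (-2.97 to -1.01), while in B cell-like cells Ier3 was higher, at 1.34 (0.54 to 2.20), as was Pkm, at 0.66 (0.16 to 1.18). The Ier3 values rest on 53 and 12 UMIs in T cell-like and 18 and 52 UMIs in the B cell-like class. Other markers moved in the same classes. In T cell-like cells neutrophil markers went from 2116 to 455 CPM (2 of 10 lower), conventional dendritic markers from 2269 to 608 CPM (2 of 12 lower, 1 higher), monocyte markers from 1604 to 752 CPM (2 of 10 lower) and innate lymphoid markers from 972 to 255 CPM (4 of 8 lower), while red cell genes went from 35.9 to 192 CPM. In the B cell-like class neutrophil markers went from 513 to 2337 CPM (4 of 10 higher). In neutrophil-like cells Ier3 had 2528 and 2541 CPM, and the part of such RNA in the calls was not tested. Shares of all measured genes called were 4.55% higher and 8.85% lower in T cell-like cells (17 members measured) and 4.38% and 1.90% in the B cell-like class (14 members measured). Bnip3l was higher in nonclassical monocyte-like cells too, at 0.80 (0.32 to 1.27), the 1 of 21 members called there (3.55% of measured genes were higher and 4.87% lower), while neutrophil markers went from 1630 to 901 CPM (6 of 10 lower). In conventional dendritic-like cells Hk1, at -0.71 (-1.31 to -0.13), and Aldoc, at -0.98 (-1.93 to -0.08), were lower and 0 of 28 members higher (3.26% and 2.83% of measured genes). Neutrophil markers went from 1223 to 594 CPM there (5 of 10 lower, 1 higher), and the part of this in the calls was not tested.

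A further 49 genes of the same pathways that are no members, among them glucose and lactate transporters, other enzymes, oxygen sensors and further HIF targets, were followed in the 3 large classes. In neutrophil-like cells 27 were measured, of which 1 was higher and 1 lower (3.62% and 6.20% of all measured genes). Vegfa, the vascular growth factor induced by HIF-1, had 196 CPM (1583 UMIs) in the sham and 127 CPM (804 UMIs) in the splenectomy library, a ratio of -0.63 (-0.75 to -0.50), and Adpgk, an ADP-dependent glucokinase, had 2.98 CPM (24 UMIs) and 7.43 CPM (47 UMIs), a ratio of 1.32 (0.58 to 2.09). In monocyte-like cells 1 of 31 was higher and 0 lower (2.76% and 4.55% of all measured genes), and in macrophage-like cells 1 of 35 and 0 (2.37% and 2.34%). In both it was the sugar transporter Slc2a6, at 13.1 and 21.1 CPM, a ratio of 0.68 (0.39 to 0.98), and at 4.75 and 9.1 CPM, a ratio of 0.94 (0.55 to 1.33). Median ratios of the measured genes of this list were 0.12 in neutrophil-like, 0.06 in monocyte-like and 0.10 in macrophage-like cells.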

How the data were processed

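Per the labels, CD45+ heart cells were run on the 10x platform with 3′ chemistry, and the deposited matrices hold counts of UMIs per gene and cell made with Cell Ranger 5.0.0, per the file headers. The submitters' processing notes name Cell Ranger, STAR and mm10. Counting UMIs removes copies made by PCR but leaves free RNA in each droplet's counts. Cells with at least 200 genes and at most 20% mitochondrial UMIs were kept, and those with the highest Scrublet scores (302 sham and 200 splenectomy, a share that grows with the number of cells) were removed as likely doublets. Scrublet's own threshold was set aside. Cells were clustered with scanpy 1.11.5 on 2000 variable genes without the members, 30 components and 15 neighbours (Leiden resolution 1.0), giving 24 clusters, and named from 18 marker lists. A name needed at least 3 markers, each in 25% of cells and 1.5-fold above the rest. Natural killer-like cells were left out, with under 50 cells in 1 library.

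UMIs were summed by class and library, and ratios of CPM carry exact conditional Poisson 95% intervals (SciPy 1.17.1). The code was run on counts simulated from the same Poisson model. That run says nothing of variation between cells, animals or libraries. With 1 library a group no test across samples was possible. A gene was called at 1.5-fold with an interval excluding 1 and at least 40 UMIs, and a count of 0 was set to 3. Cell types were compared at 2-fold in both libraries. Every member is named. In each large class the called members and Gapdh, Ldha, Hif1a and Bnip3 are given with values and the rest by range, and of the further pathway genes up to 3 called in each direction. The members and lists were chosen with earlier results of these data known. Counts of Eno1 and of its near-identical copy Eno1b may be split by the alignment. With Eno1b added, the Eno1 ratios were 0.38 in neutrophil-like, 0.24 in monocyte-like and 0.25 in macrophage-like cells. This sum, the hypoxia list without Ier3 and the monocyte-like cells without UMIs of 7 neutrophil markers were chosen after seeing the data. Positions are from GENCODE vM21 and promoters from RefSeq.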

Additional observations from a re-analysis of the deposited data

How the results depend on the processing

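No paired analysis was possible because each group is 1 library and the labels give no replicate numbers. No library could be left out for the same reason. Alternatives were run for the counts of called members, the list medians and the list levels. Of these 198 values, 148 stayed within 1.5 times the count or within the interval set for the main value. For levels this was the counting interval. For list medians it ran from the median lower to the median upper bound of the genes, which is no interval of the median itself. In neutrophil-like cells it ran from -0.216 to 0.219 for the hypoxia genes, so a change of sign could count as having stayed. The 198 include the neutrophil-like class at Leiden resolutions 0.5 and 1.5 and with libraries clustered apart, where its numbers of cells did not change. No called gene changed sign, but some list medians and levels did, as given below. Causes were not tested. The number of called enzymes was 1 in place of 0 in neutrophil-like cells after centring on all genes. In monocyte-like cells it was 0 in place of 1 with doublets kept, with at least 500 genes, with at least 2000 UMIs, with cells classed one by one and with monocyte-like and macrophage-like cells as 1 class, and 2 with libraries clustered apart. In macrophage-like cells it was 0 in place of 1 with doublets kept, at least 2000 UMIs, Leiden resolution 1.5, libraries clustered apart, cells classed one by one, a minimum of 100 UMIs and 1 joint class, and 2 with clusters weighted equally. The number of called hypoxia genes in monocyte-like cells was 1 in place of 2 with at least 500 genes, cells classed one by one, clusters weighted equally and 1 joint class, and 4 at Leiden resolution 0.5. In macrophage-like cells it was 1 in place of 0 with at most 10% mitochondrial UMIs, Leiden resolution 0.5, libraries clustered apart, clusters weighted equally and 1 joint class. The median log2 ratio of the enzymes in monocyte-like cells (0.169) was 0.096 with at least 2000 UMIs, 0.121 at Leiden resolution 1.5, -0.078 with libraries clustered apart and 0.104 with clusters weighted equally. In macrophage-like cells the median of the enzymes was -0.002 with at least 2000 UMIs, and that of the hypoxia genes -0.009 there and -0.044 with clusters weighted equally. In neutrophil-like cells the median of the hypoxia genes (-0.039) also changed sign. It was 0.032 after centring on all genes, 0.084 with clusters weighted equally and 0.008 with a minimum of 1 UMI. The log2 level of the enzymes in neutrophil-like over macrophage-like cells (-1.678 sham, -1.556 splenectomy) was -1.647 and -1.517 with doublets kept, -1.629 and -1.516 with cells classed one by one, -1.904 and -1.794 without mitochondrial, ribosomal protein and haemoglobin genes in the total, and -1.524 and -1.435 with every cell weighted equally. With libraries clustered apart it was -1.626 for splenectomy. The same level of the hypoxia genes (-0.017 and -0.094) was -0.047 and -0.217 with libraries clustered apart, -0.243 and -0.332 without those genes in the total, 0.048 and -0.006 with every cell weighted equally, -0.678 and -0.708 without Ier3, and -0.047 for splenectomy with doublets kept. Depth limits Egln3 in single monocyte-like cells, where thinning to 2000 UMIs left 11 of 823 and 13 of 990 cells with a UMI.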

Other observations

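Among cells without a class name, a cluster led by genes of MHC class II presentation (264 sham and 234 splenectomy cells) held 7193 and 7949 CPM of glycolytic enzymes and 3166 and 3618 CPM of other hypoxia genes. A cluster of 360 and 320 cells with few UMIs (medians of 1539 and 1653) held 2852 and 3264 CPM of enzymes. Cardiomyocyte-like cells, 15 and 8 in number, held 6538 and 10216 CPM of enzymes.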
